A study of Mus musculus with 12 samples.

Results

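The p53 target genes Cdkn1a, Mdm2, Ccng1, Bax, Phlda3, Eda2r, Trp53inp1, Zmat3, Bbc3 and Sesn2 were followed in 12 mouse hearts as a transcript readout of DNA damage after cisplatin (CDDP), a platinum drug that crosslinks DNA. The 10 genes were found by symbol in a table of 55885 genes, each once. All 10 were among the 13815 genes with a level of at least 1 TPM, a transcript abundance scaled for transcript length and library size, in at least 3 hearts, and each reached that level in all 3 Saline hearts, so none entered the test only through a group in which it was high.

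RNA-seq was performed on heart tissue of male mice that were 8 weeks old (C57BL/6 by the labels, C57BL/6J by the methods), either wild type (WT) or lacking STING (genotype Tmem173-/-), the adaptor protein that senses cytosolic DNA through cGAS. Hearts fell into 4 groups of 3: Saline (WT, no cisplatin), CDDP (WT with cisplatin), STING-/- (no cisplatin) and STING-/-+CDDP. Cisplatin was given into the peritoneum at 6 mg/kg on days 1, 8 and 15, and the hearts were taken on day 22. Hearts without cisplatin are untreated by the labels and given saline by the methods. The deletion is germline, so every cell type of the STING-/- heart lacks the functional gene.

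p53 is a transcription factor that is held at a low level by the ubiquitin ligase Mdm2. When DNA is damaged, the kinases Atm, Atr, Chek1 and Chek2 signal to p53, the protein becomes stable, and it binds response elements made of paired half-sites at its target genes. The targets stop the cell cycle (Cdkn1a), return p53 to its low level (Mdm2, Ccng1), promote apoptosis (Bax, Bbc3, Eda2r, Trp53inp1, Phlda3), restrain growth signalling (Sesn2) or act on RNA (Zmat3). Because control of p53 is largely at the protein, Trp53 mRNA need not move with its targets. Several targets, among them Cdkn1a, Sesn2 and Bbc3, can also be induced by other factors such as FoxO proteins, the glucocorticoid receptor or ATF4.

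Sting1 mRNA, from the deleted gene, was still read in every heart, at 6.50 to 12.3 TPM in Saline, 5.62 to 22.1 in CDDP, 2.87 to 5.96 in STING-/- and 3.37 to 4.67 in STING-/-+CDDP, so the lowest CDDP heart lay below the highest STING-/- heart. Cardiomyocyte markers summed to 14906 to 33395 TPM over the 12 hearts, with all 6 markers present. With cisplatin in WT hearts, 4 of 6 endothelial, 3 of 6 fibroblast, 4 of 6 macrophage and 5 of 5 erythroid markers fell (limma, adjusted p under 0.05). So did 1 of 2 lymphocyte and 1 of 3 skeletal muscle markers tested, and of 6 cardiomyocyte markers 1 rose and 1 fell. Of all genes tested, 8.52% rose and 10.4% fell in WT hearts, and 0.253% and 0.68% in STING-/- hearts. In STING-/- hearts 1 macrophage marker fell and none of the endothelial, fibroblast or erythroid markers was called. Summed over the lists, endothelial markers were at 1278 to 2311 TPM in Saline, 797 to 994 in CDDP, 1041 to 1687 in STING-/- and 1143 to 1236 in STING-/-+CDDP. Macrophage markers summed to 258 to 359 TPM, 71.2 to 167, 253 to 379 and 98.0 to 210 in the same order, and fibroblast markers to 718 to 1763, 977 to 2084, 882 to 1299 and 648 to 1508. Erythroid markers stood at 4146 to 9317, 42.0 to 1271, 264 to 1465 and 81.9 to 311 TPM. One CDDP heart had neutrophil markers summing to 1107 TPM against at most 92.6 outside the CDDP group, and 1 Saline heart had atrial markers at 38939 TPM against 310.2 to 339 in the other two. Atrial markers varied widely in the other groups too, at 854 to 14622 TPM in CDDP, 2994 to 12835 in STING-/- and 331 to 9025 in STING-/-+CDDP hearts. No marker of these lists was at 0 in every heart. The part of these cells in the results below was not tested, and in whole hearts fewer cells of a type cannot be told apart from less RNA per cell. TPM values keep no read depth, so depth was unknown.

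The 10 genes are protein coding and lie apart from each other in the genome (GRCm38, GENCODE M21). On the plus strand are Cdkn1a at chr17:29090976-29100727, Phlda3 at chr1:135766119-135769136, Trp53inp1 at chr4:11156431-11174379 and Bbc3 at chr7:16308393-16318205. On the minus strand are Mdm2 at chr10:117688875-117710758, Ccng1 at chr11:40748552-40755311, Bax at chr7:45461697-45466898, Eda2r at chrX:97333840-97377216, Zmat3 at chr3:32334792-32366014 and Sesn2 at chr4:132492032-132510501.

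Promoter sequences were read as a description. The members were chosen as p53 targets, and p53 binds paired half-sites at its targets. Half-sites in their promoters are therefore not independent of that choice. RefSeq (GRCm38.p6) held 11 promoters, each 250 bases before to 50 bases after a start, for 8 of the members, with none for Trp53inp1 or Zmat3. A half-site of the p53 consensus (10 bases: purines, then C, then A or T, then G, then pyrimidines, read with no mismatch on both strands, the consensus being its own reverse complement) occurred in 4 of the 11, or 36.4%, against 8.36% of all 32851 promoters. A match is a description of letters and not a measured binding site, and a promoter with no match may hold an element elsewhere. The 4 promoters are printed 5′ to 3′ on the strand of the gene, with each half-site in capitals.
Cdkn1a, chr17:29090729-29091028, plus strand: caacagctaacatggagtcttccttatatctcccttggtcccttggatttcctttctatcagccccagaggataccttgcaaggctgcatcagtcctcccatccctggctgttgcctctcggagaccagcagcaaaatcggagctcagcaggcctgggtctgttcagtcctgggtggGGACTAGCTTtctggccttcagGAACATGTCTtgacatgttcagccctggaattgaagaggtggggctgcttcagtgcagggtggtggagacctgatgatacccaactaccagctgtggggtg
Ccng1, chr11:40755237-40755536, minus strand: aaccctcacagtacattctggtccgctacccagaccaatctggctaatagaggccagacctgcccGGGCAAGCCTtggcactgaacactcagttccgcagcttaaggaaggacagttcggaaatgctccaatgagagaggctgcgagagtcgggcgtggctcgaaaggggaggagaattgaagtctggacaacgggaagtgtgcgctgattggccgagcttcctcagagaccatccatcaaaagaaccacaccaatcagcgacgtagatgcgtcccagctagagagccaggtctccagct
Bax, chr7:45466849-45467148, minus strand: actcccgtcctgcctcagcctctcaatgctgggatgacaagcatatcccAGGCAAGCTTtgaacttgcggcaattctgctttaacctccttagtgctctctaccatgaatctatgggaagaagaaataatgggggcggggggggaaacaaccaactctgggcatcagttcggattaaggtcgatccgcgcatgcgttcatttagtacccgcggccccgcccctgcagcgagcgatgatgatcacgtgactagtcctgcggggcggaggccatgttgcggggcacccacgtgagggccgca
Mdm2, chr10:117710709-117711008, minus strand: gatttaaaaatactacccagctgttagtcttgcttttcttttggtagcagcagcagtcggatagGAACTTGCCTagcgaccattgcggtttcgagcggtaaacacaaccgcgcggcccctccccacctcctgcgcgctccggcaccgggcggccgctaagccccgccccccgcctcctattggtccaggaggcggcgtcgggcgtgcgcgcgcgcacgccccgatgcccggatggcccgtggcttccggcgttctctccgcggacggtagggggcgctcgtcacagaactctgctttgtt

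In the printed promoters the half-sites began 73 and 51 bases before the start in Cdkn1a, with 12 bases between them. They began 185 bases before it in Ccng1, 201 in Bax and 186 in Mdm2. The other Cdkn1a promoter, chr17:29093519-29093818, held no half-site. In Cdkn1a and Ccng1 the half-site directly adjoins a further one that differs from the consensus at 1 position, which completes an element of 20 bases. Only 29 of the 32851 promoters, 0.0883%, held adjacent half-sites with at most 1 mismatch in all, a search added after the sequences had been seen. The elements of Cdkn1a and Ccng1, shown here, were the only 2 in member promoters. Both genes were called in both genotypes, 1 higher and 1 lower with cisplatin, and a relation of the element to these calls was not tested.
Cdkn1a, chr17:29090928-29090947: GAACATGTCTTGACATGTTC
Ccng1, chr11:40755462-40755481: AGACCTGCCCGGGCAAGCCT

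To ask whether cisplatin changed the p53 targets in WT hearts, CDDP was compared with Saline. Of the 10 genes, 5 rose (Trp53inp1, Cdkn1a, Eda2r, Sesn2 and Phlda3) and 1 fell (Ccng1), while Bax, Bbc3, Mdm2 and Zmat3 did not pass the test (limma on log2(TPM + 1), adjusted p under 0.05 over all 13815 genes). Over all genes tested, 8.52% rose and 10.4% fell. The median difference of the 10 was 0.92 on the log2(TPM + 1) scale against -0.0032 over all genes. In STING-/- hearts, compared between STING-/-+CDDP and STING-/-, Cdkn1a rose and Ccng1 fell, where 0.253% of all genes rose and 0.68% fell, and the median difference was 1.06 against -0.11 over all genes. Rescaling each heart by the median of ratios brought that all-gene median to -0.0062.

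Cdkn1a encodes p21, the inhibitor of cyclin-dependent kinases through which p53 halts the cell cycle. Its level was 32.8, 48.8 and 65.8 TPM in the Saline hearts and 220, 196 and 232 TPM in the CDDP hearts. The STING-/- hearts read 42.3, 63.3 and 46.3 TPM, and the STING-/-+CDDP hearts 172, 216 and 124 TPM. Every heart with cisplatin was above every heart without it in either genotype, by a wide margin in WT. The mean was 4.40 times that of Saline in CDDP hearts and 3.37 times that of STING-/- in STING-/-+CDDP hearts. On the log2 scale the differences were 2.17 (SE 0.26, adjusted p = 8.02e-04) and 1.72 (SE 0.26, adjusted p = 0.0156). The STING-/- call was lost on leaving out 4 of the 6 hearts of that comparison one at a time, with differences of 1.53 to 1.70 and adjusted p of 0.0527 to 0.0803. Cdkn1a shares 273 exon bases with the antisense transcript AC167363.2, which stood at 0.39 to 2.24 TPM.

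Trp53inp1, a stress protein that promotes autophagy and p53-dependent death, had the largest difference of the 10 in WT hearts. Saline hearts were at 3.62, 5.55 and 3.69 TPM and CDDP hearts at 24.3, 25.5 and 47.5 TPM. Without STING the levels were 5.90, 5.56 and 4.92 TPM, and with cisplatin 18.8, 12.6 and 8.50 TPM. All hearts with cisplatin lay above all hearts without it in the same genotype, and the STING-/-+CDDP hearts lay below all CDDP hearts. The mean of CDDP was 7.57 times that of Saline, a log2 difference of 2.61 (SE 0.30, adjusted p = 7.15e-04). In STING-/- hearts the ratio was 2.44 and the log2 difference 1.09 (SE 0.30), which missed the threshold (adjusted p = 0.122) on the deposited scale.

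Eda2r, a receptor of the TNF receptor family that binds ectodysplasin A2, was the lowest of the 10 in hearts without cisplatin. Saline hearts read 1.72, 1.22 and 1.25 TPM, and CDDP hearts 9.27, 4.35 and 6.74 TPM. STING-/- hearts read 1.22, 1.27 and 0.74 TPM, and STING-/-+CDDP hearts 3.73, 4.19 and 2.02 TPM. The pattern was that of Trp53inp1, with no overlap between hearts with and without cisplatin, and the STING-/-+CDDP hearts below the CDDP hearts. The WT ratio was 4.86 and the log2 difference 1.66 (SE 0.27, adjusted p = 0.00247). The STING-/- ratio was 3.08 and the log2 difference 1.03 (SE 0.27, adjusted p = 0.107).

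Sesn2 encodes a sestrin, which restrains mTORC1 and limits oxidative stress. Its levels were 1.80, 2.40 and 1.60 TPM in Saline and 7.36, 4.32 and 6.44 TPM in CDDP hearts. They were 1.61, 2.23 and 2.30 TPM in STING-/- and 6.40, 7.31 and 3.62 TPM in STING-/-+CDDP hearts. Unlike those of Eda2r, the hearts with cisplatin overlapped between the genotypes. The ratios were 3.12 in WT, with a log2 difference of 1.25 (SE 0.25, adjusted p = 0.00658), and 2.82 in STING-/- hearts, with 1.12 (SE 0.25, adjusted p = 0.0640).

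Phlda3, a pleckstrin-homology protein that competes with Akt for membrane lipids, stood at 19.1, 32.2 and 13.5 TPM in Saline and at 61.7, 31.0 and 56.4 TPM in CDDP hearts. In STING-/- hearts it was at 16.6, 26.7 and 15.5 TPM, and in STING-/-+CDDP hearts at 56.4, 74.4 and 34.9 TPM. The second CDDP heart fell inside the Saline range, whereas the STING-/- groups did not overlap. The log2 difference was 1.19 in WT (SE 0.37, adjusted p = 0.0439) and 1.42 in STING-/- hearts (SE 0.37, adjusted p = 0.107). The WT call is close to the threshold and was lost without a filter on low values (adjusted p = 0.101), with only the groups compared in the fit (0.0966), and without either Saline heart 1 or 3 or CDDP heart 1 or 3 (0.115 to 0.144). It was also lost without STING-/- heart 1 or 3 or STING-/-+CDDP heart 1, which enter only the estimate of the spread (0.0540 to 0.0601).

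Bax and Bbc3 (PUMA) are the BCL-2 family members through which p53 acts on mitochondria. Bax was at 36.1, 32.2 and 30.1 TPM in Saline hearts, 75.0, 37.0 and 49.4 in CDDP, 27.0, 33.7 and 24.9 in STING-/- and 61.4, 62.8 and 43.6 in STING-/-+CDDP hearts. No heart with cisplatin was as low as a heart without it of the same genotype, although the second CDDP heart exceeded the highest Saline heart only narrowly. The differences were 0.64 (SE 0.24, adjusted p = 0.0808) and 0.94 (SE 0.24, adjusted p = 0.0974) on the log2 scale. The difference in WT hearts passed without CDDP heart 2 (0.88, adjusted p = 0.0252), and that in STING-/- hearts passed without CDDP heart 1, which enters it only through the spread (0.94, adjusted p = 0.0361). Bax shares 192 exon bases with Gm45808 on the same strand, which was at 0.68 TPM or less. Bbc3 was at 3.65, 3.49 and 5.24 TPM in Saline, 3.40, 7.14 and 9.14 in CDDP, 3.20, 4.04 and 1.58 in STING-/- and 8.59, 7.54 and 5.47 in STING-/-+CDDP hearts. The first CDDP heart read lower than every Saline heart and the other two higher, so the WT groups overlapped, and the STING-/- groups did not. Its log2 differences were 0.49 (SE 0.33, adjusted p = 0.317) and 1.09 (SE 0.33, adjusted p = 0.149).

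Mdm2, the ubiquitin ligase that targets p53 and is itself a p53 target, was at 20.04, 28.1 and 20.03 TPM in Saline and 30.4, 25.0 and 40.1 in CDDP hearts. It was at 20.5, 24.6 and 27.4 TPM in STING-/- and 30.0, 31.5 and 18.0 in STING-/-+CDDP hearts. The groups overlapped in both genotypes. The log2 differences were 0.46 (95% interval -0.066 to 0.99, adjusted p = 0.203) and 0.097 (-0.43 to 0.62, adjusted p = 0.897), so a 95% interval included 0 in each genotype.

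Zmat3, a zinc finger protein that binds RNA, was likewise within the spread, at 1.63 to 2.58 TPM in Saline, 2.02 to 4.08 in CDDP, 1.71 to 2.66 in STING-/- and 1.60 to 3.31 in STING-/-+CDDP hearts. Its log2 differences were 0.32 (-0.23 to 0.88, adjusted p = 0.407) in WT and 0.23 (-0.32 to 0.79, adjusted p = 0.742) in STING-/- hearts.

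Ccng1, cyclin G1, recruits protein phosphatase 2A to Mdm2 and is described as induced by p53 in many tissues, yet here it moved the other way. Saline hearts were at 212, 230.4 and 249 TPM and CDDP hearts at 106, 93.8 and 138 TPM. STING-/- hearts were at 247, 232 and 271 TPM and STING-/-+CDDP hearts at 151, 151 and 115 TPM. Every heart with cisplatin was below every heart without it, in both genotypes. The mean with cisplatin was 0.489 times that without it in WT and 0.555 times in STING-/- hearts. On the log2 scale Ccng1 fell by 1.04 (SE 0.16, adjusted p = 0.00216) in WT and by 0.85 (SE 0.16, adjusted p = 0.0333) in STING-/- hearts. The STING-/- call was lost without a filter (adjusted p = 0.0778) and on leaving out any of the 6 hearts of that comparison (0.0795 to 0.153), with the difference staying between -0.92 and -0.72.

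**Figure D1:**
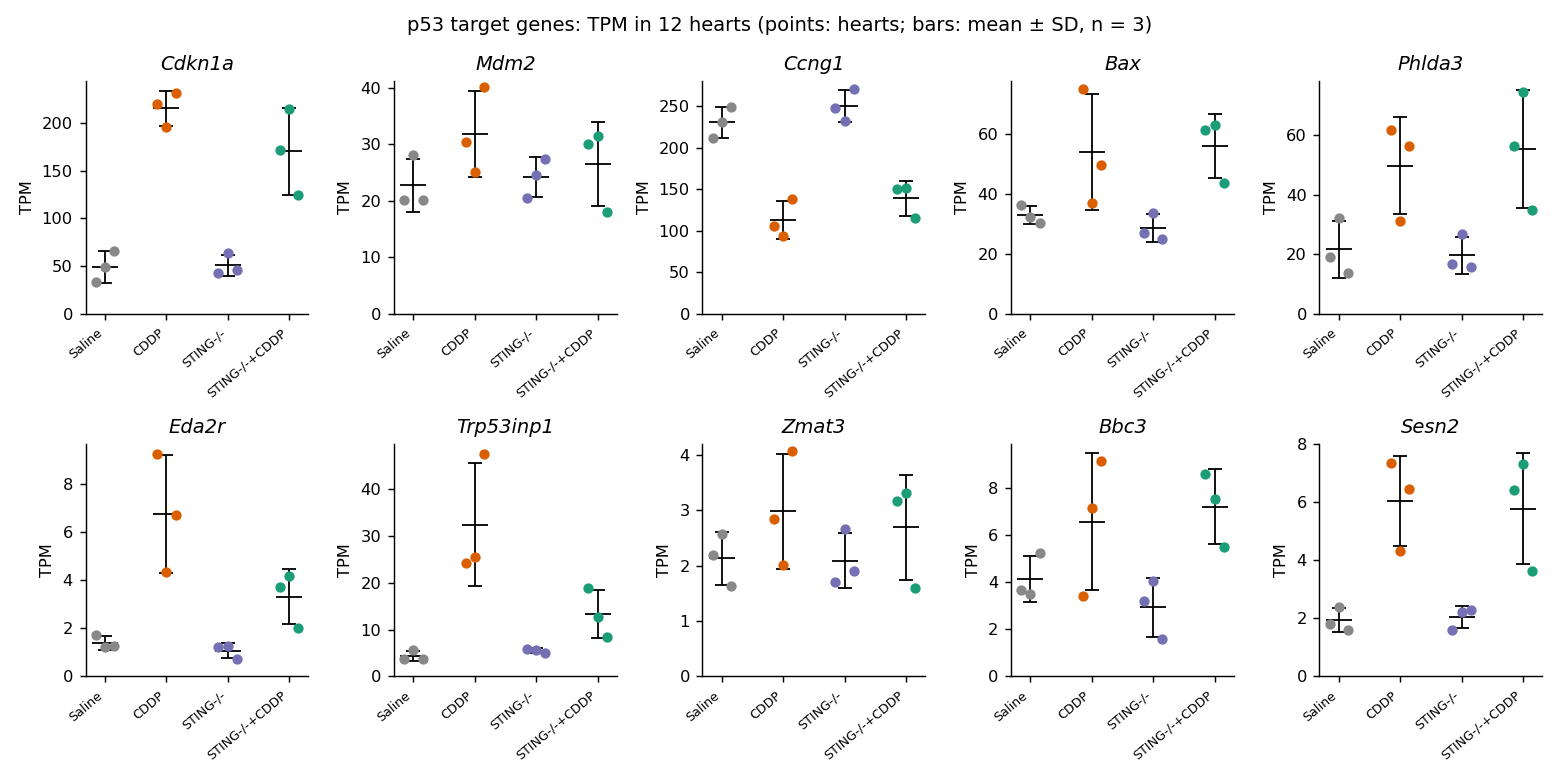
TPM of the 10 p53 target genes in each of the 12 hearts (points) with the group mean and SD (bars, n = 3), each panel on its own linear axis from 0. Cdkn1a stands at 196 to 232 TPM in CDDP hearts against 32.8 to 65.8 in Saline, Ccng1 is lower with cisplatin in both genotypes, and Trp53inp1 and Eda2r have STING-/-+CDDP hearts below all CDDP hearts.

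TPM is scaled to transcript length, so the levels may be ordered between genes. Ccng1 was the most abundant of the 10 without cisplatin, with a mean of 230.5 ± 18.3 TPM in Saline and 250.3 ± 19.7 in STING-/- hearts (SD, n = 3), followed by Cdkn1a at 49.1 ± 16.5 and 50.6 ± 11.2 TPM. With cisplatin Cdkn1a came first, at 216 ± 18.4 TPM in CDDP and 170.4 ± 45.6 in STING-/-+CDDP hearts, ahead of Ccng1 at 113 ± 23.1 and 139 ± 20.7 TPM. In STING-/-+CDDP hearts the Cdkn1a and Ccng1 levels overlapped. In Saline hearts Bax, Mdm2 and Phlda3 came next, the Phlda3 values overlapping those of both others, and the remaining 5 members had means of 1.40 to 4.29 TPM.

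Read by whether hearts overlapped, 5 members were above Saline in every CDDP heart and 1 below, where 14.9% and 17.1% of all genes were. In STING-/- hearts 7 members were above and 1 below, against 7.28% and 16.9% of all genes. The 10 members had the same sign of change in both genotypes, 9 of them higher, and these comparisons share no heart. The absolute log2 difference was larger in WT for 7 of the 10, the exceptions being Phlda3, Bax and Bbc3. That count was 5 of 10 with quantile normalization, with heart weights or without the third STING-/-+CDDP heart, 5 of the 8 tested with the stricter filter, and 6 to 8 of 10 over the other alternatives.

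The number of calls in STING-/- hearts depended on scaling and weighting. On the deposited scale 1 member rose and 1 fell. After rescaling by the median of ratios 4 rose and 1 fell (Trp53inp1, Sesn2 and Phlda3 added), where 0.825% of all genes rose. With quantile normalization 6 rose and 1 fell (Eda2r and Bbc3 also added), where 1.2% of genes rose, and with weights for each heart 7 rose and 1 fell (Bax added, relative to quantile normalization), where 1.64% rose. The third STING-/-+CDDP heart was the lowest of its group for all 10 members, Ccng1 included, as deposited and after rescaling, and it had the smallest scaling factor of the 12 hearts (0.8101) and the highest share of TPM in mitochondrially encoded genes (27.6%, against 18.8% to 26.1%). Without it 1 member was called in STING-/- hearts, Cdkn1a.

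**Figure D2:**
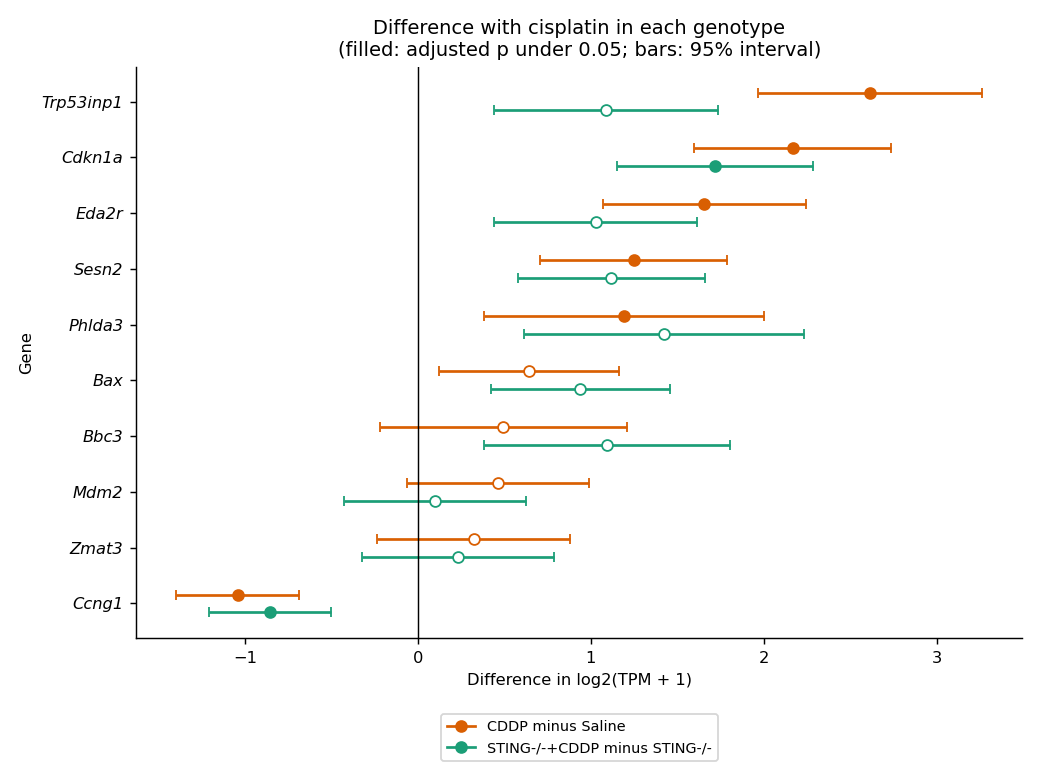
Differences in log2(TPM + 1) with cisplatin for the 10 p53 target genes in WT (orange) and STING-/- hearts (green), with 95% intervals from limma; filled points have an adjusted p under 0.05. Points run from 2.61 for Trp53inp1 to -1.04 for Ccng1 in WT, and 6 WT and 2 STING-/- points are filled.

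To ask whether the genotype mattered, STING-/-+CDDP was compared with CDDP. None of the 10 genes passed the test, where 1.22% of all genes did, and 2 had an unadjusted p under 0.05 (limma). Those were Trp53inp1, whose mean was 0.410 times that of CDDP hearts (log2 difference -1.22, 95% interval -1.87 to -0.57, adjusted p = 0.0644), and Eda2r, at 0.488 times (-0.84, -1.42 to -0.26, adjusted p = 0.128). These 2 were also the only members with all 3 STING-/-+CDDP hearts below all 3 CDDP hearts, as for 15.6% of all genes, and 0 members were above, as for 7.12%. Trp53inp1 passed after rescaling by the median of ratios (-1.11, adjusted p = 0.0253) and with quantile normalization (-1.06, adjusted p = 0.0296). More genes passed under these settings, 668 and 671 of all 13815, against 168 on the deposited scale. For the other 8 members the 95% interval included 0, with differences between -0.37 for Cdkn1a (-0.94 to 0.20) and 0.31 for Ccng1 (-0.050 to 0.66). Those of Bax, Bbc3, Phlda3, Sesn2 and Zmat3 lay between -0.11 and 0.18 and changed sign with the heart left out. The median over the 10 members was -0.092, against -0.095 over all genes.

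Without cisplatin, none of the 10 genes differed between STING-/- and Saline hearts by limma, 0 had an unadjusted p under 0.05, and 0.0724% of all genes passed. The hearts of these groups overlapped for all 10 members. The differences ran from -0.42 for Bbc3 (95% interval -1.13 to 0.29) to 0.31 for Trp53inp1 (-0.34 to 0.95).

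The change with cisplatin was then compared between the genotypes within the same fit, as the STING-/- difference minus the WT difference. No member passed, 0.00724% of all genes did, and 1 member had an unadjusted p under 0.05. That member was Trp53inp1, at -1.53 (95% interval -2.44 to -0.61, unadjusted p = 0.00352, adjusted p = 0.316). Eda2r was at -0.63 (-1.46 to 0.20), Cdkn1a at -0.45 (-1.25 to 0.35) and Ccng1 at 0.19 (-0.31 to 0.69). Sesn2 was at -0.13 (-0.89 to 0.63) and Bbc3 at 0.60 (-0.41 to 1.61), so intervals of this width leave room for differences of either sign. A gene called in WT and not in STING-/- hearts was therefore not shown to differ between them.

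**Figure D3:**
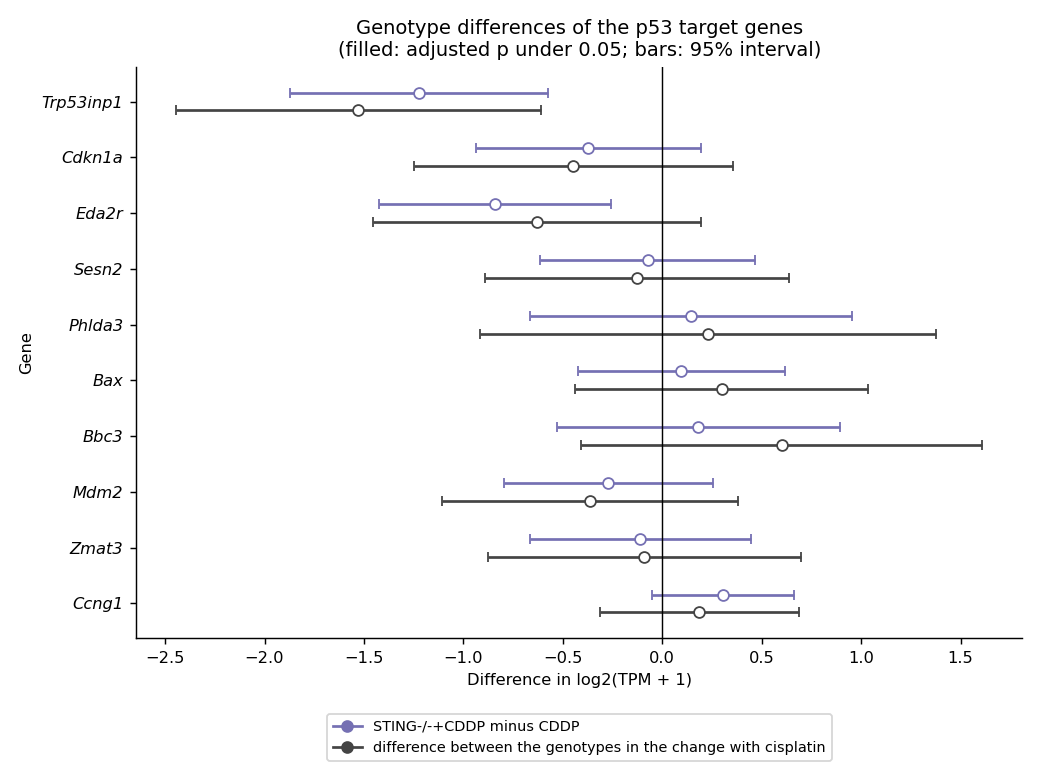
Genotype differences of the 10 p53 target genes in log2(TPM + 1) with 95% intervals from limma: STING-/-+CDDP minus CDDP (violet), and the difference between the genotypes in the change with cisplatin (dark grey). No point is filled, since none has an adjusted p under 0.05; Trp53inp1 at -1.22 and -1.53 lies farthest from 0 in both.

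How the members varied among themselves was described over the 12 hearts, which share the cisplatin contrast and the scaling of each library. Leaving out Ccng1, all 36 pairs of the other 9 genes had a Pearson r above 0, from 0.335 to 0.946 with a median of 0.718. Ccng1 had r of -0.854 to -0.259 with them. The mean z score over all 10 members was 0.147 to 1.17 in CDDP and -0.686 to -0.279 in Saline hearts. It was -0.769 to -0.285 in STING-/- hearts and 0.780, 0.867 and -0.320 in STING-/-+CDDP hearts. By this score the third STING-/-+CDDP heart lay among the hearts without cisplatin. The score takes Ccng1 with its sign unreversed, although Ccng1 fell with cisplatin. The Ccng1 z score of that heart was -1.08, against 0.558 to 1.21 in the hearts without cisplatin. Its place among them depends on Ccng1: over the other 9 members its mean z score lay above that of every heart without cisplatin. Besides that heart, the second CDDP heart was the lowest of its group for 8 of the 10 members.

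**Figure D4:**
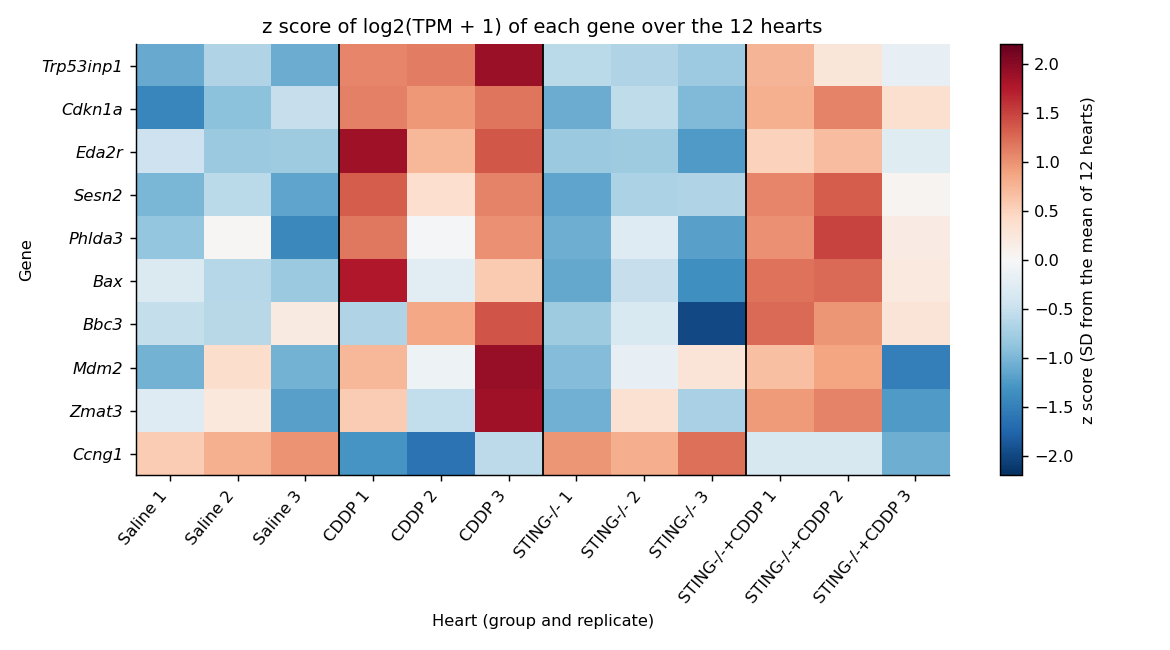
z scores of log2(TPM + 1) of each member (rows) over the 12 hearts (columns, ordered by group), where red is above and blue below the mean of that gene over the hearts. CDDP columns are mostly red outside the Ccng1 row, which is blue in all hearts with cisplatin, and the third STING-/-+CDDP column has the lowest z score of its group in every row.

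The genes outside the members whose levels followed the mean z score most closely over the 12 hearts were Aaas (r = 0.964), Slc19a2 (0.955), Ppp1r9b (0.955), Polk (0.952), Riok2 (0.933) and the long intergenic RNA Gm42047 (0.933). Slc19a2, a thiamine transporter, and Polk, a translesion DNA polymerase, were also on the list of other p53 targets. Closest to Cdkn1a were Med4 (0.975), a Mediator subunit, Cnksr1 (0.964) and Gdf15 (0.959).

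A list of 30 other p53 targets was read in the same fit, and 29 of them were tested. In WT hearts 7 rose and 0 fell, where 8.52% and 10.4% of all genes did, with a median log2 difference of 0.48 against -0.0032 over all genes. Of the same 29, 2 rose and 0 fell in STING-/- hearts, where 0.253% and 0.68% of all genes did, with a median of 0.28 against -0.11. A broader list, the p53 signaling pathway of the deposited annotation, was read after the values had been seen. Of its 218 genes 65 were tested, and 7 rose and 9 fell in WT hearts (median 0.16) and 1 rose and 2 fell in STING-/- hearts (median -0.080). The WT counts are near the 8.52% and 10.4% of all genes, and the STING-/- median is near the -0.11 of all genes. Gdf15, a secreted stress cytokine, went from 0.99 ± 0.16 TPM in Saline to 5.49 ± 0.94 in CDDP and from 1.04 ± 0.26 in STING-/- to 4.56 ± 1.95 in STING-/-+CDDP hearts (SD, n = 3). Dcxr, a carbonyl reductase, went from 9.94 ± 1.54 to 32.4 ± 2.54 TPM and from 8.95 ± 0.91 to 27.6 ± 3.10 TPM in the same order. These were the genes that passed in both genotypes, with log2 differences of 1.70 (adjusted p = 0.00137) and 1.39 (0.0240) for Gdf15 and of 1.62 (2.75e-04) and 1.52 (0.00145) for Dcxr. Dcxr kept its call in all alternatives run, and the STING-/- call of Gdf15 was lost in 8 of them (adjusted p of 0.0568 to 0.115).

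Btg2, an antiproliferative protein that is also an immediate early gene, was the one other p53 target that differed between the cisplatin groups. It was at 27.2, 29.4 and 20.9 TPM in Saline, 110.3, 60.4 and 66.3 in CDDP, 20.4, 21.2 and 16.4 in STING-/- and 30.7, 29.9 and 20.7 in STING-/-+CDDP hearts. The STING-/-+CDDP hearts were below every CDDP heart and within or just above the range of hearts without cisplatin. Its log2 differences were 1.54 with cisplatin in WT (SE 0.24, adjusted p = 0.00215), 0.45 in STING-/- (SE 0.24, adjusted p = 0.445) and -1.48 between STING-/-+CDDP and CDDP (SE 0.24, adjusted p = 0.0216). The last call was lost without a filter (0.0571), with only the groups compared (0.0895) and without any of the 3 STING-/-+CDDP hearts (0.0527 to 0.0946). The interaction for Btg2 was -1.08 with an unadjusted p of 0.00785 and an adjusted p of 0.325.

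Pmaip1 (NOXA), Plk3, the death receptor Tnfrsf10b and the repair nuclease Ercc5 rose in WT hearts by 1.13, 0.92, 0.91 and 0.81 on the log2 scale (adjusted p of 0.0128 to 0.0239), and each of these calls was lost with only the groups compared (0.0755 to 0.103). Plk3, Tnfrsf10b and Pmaip1 were highest in the first CDDP heart, at 6.06, 5.97 and 3.41 TPM, against 3.08 to 3.78, 2.39 to 3.67 and 0.98 to 2.48 in the other two, as was Btg2. That heart is the one with the high neutrophil markers. Without it the calls of Plk3 (0.69, adjusted p = 0.0697), Tnfrsf10b (0.64, 0.0654) and Pmaip1 (0.88, 0.0760) were lost, and that of Btg2 in WT hearts stayed (1.27, 0.00428).

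Among p53 and its regulators, 13 of 16 were tested. Trp53 itself was at 8.91 to 18.5 TPM in Saline, 9.49 to 16.2 in CDDP, 9.02 to 14.3 in STING-/- and 6.26 to 10.5 in STING-/-+CDDP hearts, and did not pass in either genotype (log2 differences -0.0090, adjusted p = 0.987, and -0.29, adjusted p = 0.714). Chek2, a checkpoint kinase upstream of p53, fell in WT hearts from 7.01, 4.69 and 3.29 TPM to 0.80, 1.95 and 1.71 TPM (log2 difference -1.25, SE 0.28, adjusted p = 0.0106), a call lost with only the groups compared (0.0570). It was at 3.39, 3.47 and 3.93 TPM in STING-/- and 3.04, 4.14 and 1.96 TPM in STING-/-+CDDP hearts (-0.22, adjusted p = 0.780). No other regulator was called in WT hearts and none in STING-/- hearts, with medians of 0.30 and -0.15. Of all genes, 8.52% rose and 10.4% fell in WT hearts, so 1 of 13 falling is near that share. With the median of ratios and with quantile normalization 4 regulators rose and 1 fell in WT hearts. Of all 13815 genes, 1865 rose and 1959 fell with the median of ratios, and 1914 and 1990 with quantile normalization. With the stricter filter or only the groups compared no regulator was called.

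**Figure D5:**
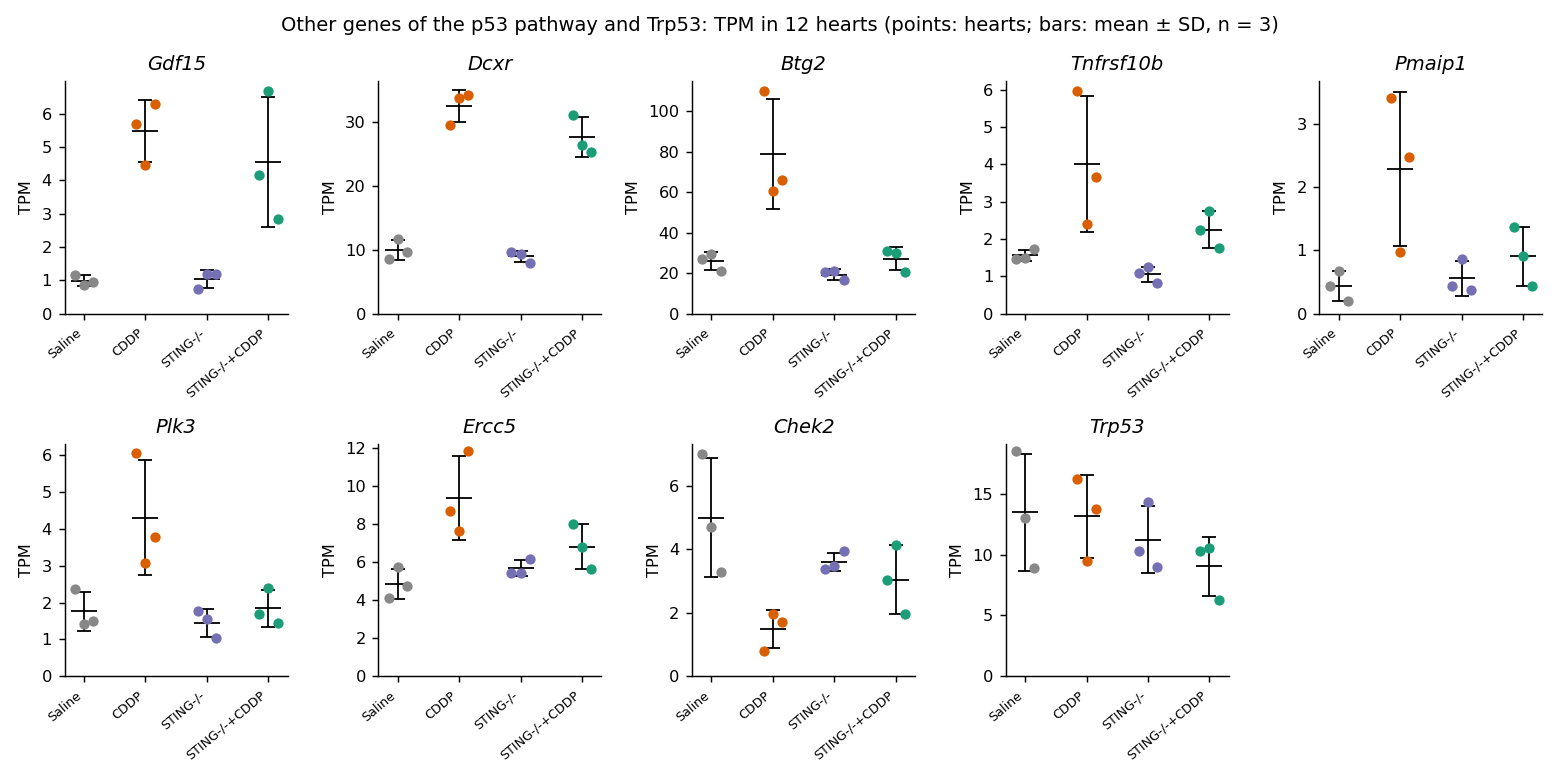
TPM of 7 other p53 targets, Chek2 and Trp53 in the 12 hearts (points) with the group mean and SD (bars, n = 3), each panel on its own linear axis from 0. Gdf15 and Dcxr are higher with cisplatin in both genotypes, Btg2 is at 60.4 to 110.3 TPM in CDDP and 20.7 to 30.7 in STING-/-+CDDP hearts, and Trp53 overlaps between all groups.

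Genes that lie beyond or beside p53 were counted too. Of 20 cell cycle genes that p21 represses through the DREAM complex, 11 were tested, and in WT hearts 1 rose and 3 fell (median -0.044), with none called in STING-/- hearts (median -0.15). With no filter on low values all 20 were tested, and in WT hearts 1 rose and 8 fell (median -0.52), where 924 and 1162 of 27721 genes did. The genes so added did not reach 1 TPM in 3 hearts. With the filter and only the groups compared 0 rose and 1 fell. Of 12 ATF4 targets 11 were tested and none was called in either genotype (medians 0.29 and -0.25). Of 10 glucocorticoid and FoxO targets, such as Fkbp5 and Pdk4, all were tested, and 5 rose in WT hearts (median 0.92) and none was called in STING-/- hearts (median 0.37), where 7 of the 10 differences were above 0. With the filter, the shares over all genes are again 8.52% higher and 10.4% lower in WT and 0.253% and 0.68% in STING-/- hearts. So 1 of 11 cell cycle genes rising is near the share of all genes. The glucocorticoid and FoxO targets summed to 533 to 924 TPM in Saline, 2295 to 4992 in CDDP, 958 to 1209 in STING-/- and 1961 to 2292 in STING-/-+CDDP hearts. The part of this list in the results of the members was not tested.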

How the data were processed

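RNA-seq of 12 hearts was analysed from 1 table of TPM values that the authors deposited. Per the submitters' processing notes, fastp, HISAT and RSEM and the build GRCm38.p5 were used; versions, annotation and strandedness are not given in the sources used here. Each TPM column summed to 999999 to 1000001. The table also holds 4 columns of group means, which were not used. Each heart column was named by its sample title, and groups came from genotype and treatment.

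TPM was taken as log2(TPM + 1), genes with at least 1 TPM in at least 3 hearts were kept, and a model of the 4 group means over all 12 hearts (8 residual degrees of freedom) was fitted with limma 3.58.1 in R 4.3.3 (eBayes with a trend). Two-sided p-values were adjusted by Benjamini-Hochberg over all 13815 genes. A fold change on this scale understates the change of low genes. The methods of the study name an adjusted p of 0.05 but no test. The script was tested on simulated data. Group ratios are ratios of mean TPM.

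The members and lists were chosen with earlier results of these data known. Named were all members, the 8 genes of the p53 lists with the largest change among those that passed with cisplatin, Trp53, and the genes most like the members (6) or Cdkn1a (3) over the hearts; Fkbp5 and Pdk4 are named as examples of their list only. Gene positions and overlaps are from GENCODE M21 (GRCm38), in which 55227 of the listed identifiers were found, and promoters are from RefSeq. Alternatives were another pseudocount, other filters, scalings and variance models, a replicate block and leaving out each heart; applying them to the other lists and named genes was chosen after seeing the data. Hearts are separate samples by the labels, which do not state in words that each is from another animal, so p-values measure the spread between these samples.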

Additional observations from a re-analysis of the deposited data

How the results depend on the processing

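In WT hearts 5 to 6 members were called with cisplatin under the other settings and 5 to 7 with each heart left out. In STING-/- hearts the 2 calls became 1 without a filter, 5 with the median of ratios, 7 with quantile normalization, 8 with heart weights and 1 with the replicate block, and 0 to 3 with each heart left out (0 without STING-/- heart 1 or 3 or STING-/-+CDDP heart 1 or 2, and 1 without the remaining heart of either group). Between STING-/-+CDDP and CDDP the 0 calls became 1 with the median of ratios and 1 with quantile normalization. Over all genes and the settings other than a heart left out, calls ranged from 822 to 3904 (2610 as reported) for CDDP against Saline, from 46 to 613 (129) for STING-/-+CDDP against STING-/-, and from 12 to 671 (168) for STING-/-+CDDP against CDDP; with each heart left out they were 1241 to 2548, 15 to 203 and 11 to 388. The causes were not tested. Over all alternatives, the other p53 targets called ranged from 3 to 11 in WT and 1 to 4 in STING-/- hearts, the glucocorticoid and FoxO targets from 1 to 9 and 0 to 1, the cell cycle genes from 1 to 9 and 0 to 0, the regulators from 0 to 5 and 0 to 0, and the ATF4 targets from 0 to 1 and 0 to 0. The number tested and the calls over all genes changed with the setting. The 11 were of 29 with quantile normalization, where 3904 of 13815 genes were called. The 9 glucocorticoid and FoxO targets were of 10 with heart weights (2939 of 13815). The 9 cell cycle genes were of 20 with no filter (2086 of 27721). The 4 were of 29 with heart weights (613 of 13815). The lowest WT counts came with only the groups compared (822 of 13815).

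Of 1791 alternative values for single genes, 1661 kept direction and side of the threshold, 54 lost a call, 29 gained one and 47 changed sign. Without mitochondrially encoded genes Zmat3 became 0.00099 for STING-/- against Saline. Between STING-/-+CDDP and CDDP, Sesn2 became 0.021 with the median of ratios, 0.039 with quantile normalization and 0.23 with heart weights, Zmat3 0.15 and Polk 0.13 with heart weights. In the interaction, Zmat3 became 0.0076 and Sesn2 0.018 with quantile normalization, and 0.18 and 0.15 with heart weights. With each heart left out, the difference of Mdm2 for STING-/-+CDDP against STING-/- ranged from -0.044 to 0.34 and that of Trp53 for CDDP against Saline from -0.26 to 0.23. For STING-/-+CDDP against CDDP the ranges were -0.17 to 0.44 (Bbc3), -0.14 to 0.36 (Bax), -0.29 to 0.12 (Zmat3), -0.26 to 0.18 (Sesn2), -0.16 to 0.44 (Phlda3), -0.24 to 0.15 (Polk) and -0.090 to 0.27 (Slc19a2). For STING-/- against Saline they were -0.00042 to 0.25 (Mdm2), -0.18 to 0.31 (Cdkn1a), -0.15 to 0.080 (Zmat3), -0.026 to 0.17 (Sesn2) and -0.36 to 0.23 (Phlda3), and for the interaction -0.27 to 0.14 (Zmat3), -0.32 to 0.12 (Sesn2) and -0.089 to 0.52 (Phlda3).

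No pairing of the hearts by replicate number was seen. Deviations from the group means of the 18 same-number pairs correlated at -0.333 to 0.261, with 4 over 0.1. The 36 other pairs correlated at -0.312 to 0.431, and 1 of 12 hearts correlated best with a heart of its own number. With 3 hearts a group, these values cannot show that no pairing exists. With the replicate block the 6 WT calls stayed 6, and in STING-/- hearts Ccng1 lost its call (adjusted p = 0.0610, limma). TPM keeps no depth, and 3 hearts a group limit what can be detected, the median standard error of a difference being 0.216.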
